A study of Homo sapiens with 12 samples.

Results

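The NF-κB subunits and the genes of their feedback loop were measured by bulk mRNA sequencing in U87, an established line of human glioblastoma cells (U-87 MG). They were 10 of the 20263 genes in the deposited table, chosen by name with earlier results of these data known. The subunit genes were NFKB1, NFKB2, REL, RELA and RELB, and the inhibitor genes were NFKBIA, NFKBIZ and TNFAIP3. The survival gene BIRC3 and the adhesion gene ICAM1 completed the set. All cells were kept at 1% O2 for 72 h according to the record of the sequencing experiment, whereas the methods of the study give a shorter exposure for mRNA detection in general. The 4 groups of 3 libraries were the empty vector group (vector), the HIF1α knockout (HIF1α-ko), the HIF2α knockout (HIF2α-ko) and the dual knockout (HIF1α/2α-ko), so hypoxia was common to all of them and no normoxic library was part of the comparison. The sources used here do not say whether a knockout was 1 clone or a pool, nor whether the 3 libraries of a group came from separate cultures, so p-values measure only the spread between these libraries.

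NF-κB proteins are dimers drawn from a family of related subunits. In resting cells IκB proteins hold them in the cytoplasm. In the canonical route the IKK complex marks IκBα for destruction and sets free dimers of RELA or REL with p50, the product of NFKB1. In the noncanonical route p100, the product of NFKB2, is trimmed to p52, which pairs with RELB. The freed dimers bind κB sites and switch on, among many others, the genes of their own inhibitors, which closes a feedback loop. In glioblastoma this pathway is known for its part in inflammatory and mesenchymal expression programmes, and in hypoxic cells it is known to cross-talk with the hypoxia-inducible factors HIF1α and HIF2α.

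The 250 bases before each RefSeq transcript start (GRCh38.p14) were searched on both strands for the κB consensus, for a looser κB motif (GGG, any 5 bases, CC) and for the cores of the hypoxia response element, ACGTG and GCGTG. Entries were found for 9 of the 10 genes, at 14 starts in all. The κB consensus was present at 9 of these 14 starts, in 7 of the 9 genes, and at 1828 of the 35116 starts of all genes (5.21%). RELA and ICAM1 had no match to it in these windows. The looser motif, which overlaps the consensus, was found at 13 of 14 starts against 54.4% of all starts. A core of the hypoxia response element was found at 9 of 14 starts, in every searched gene except NFKBIA, against 43.2% of all starts. Starts of 1 gene can share bases, and a match describes letters and shows no binding. Sequences are shown for the 6 genes that had a match to the consensus and were expressed highly enough to be tested, 1 start for each; REL also had a match but was not tested. They run 5′ to 3′ along the strand of the gene, with matches to the κB consensus in capitals. The windows of NFKBIA, BIRC3 and NFKBIZ lie outside the gene in the GENCODE 29 annotation, and for the other genes, where an annotated exon reaches into the window, only the match with its nearest bases is given.
NFKBIA, chr14:35404750-35404849, minus strand: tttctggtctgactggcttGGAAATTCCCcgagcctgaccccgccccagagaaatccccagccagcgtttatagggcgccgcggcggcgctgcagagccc
BIRC3, chr11:102317275-102317374, plus strand: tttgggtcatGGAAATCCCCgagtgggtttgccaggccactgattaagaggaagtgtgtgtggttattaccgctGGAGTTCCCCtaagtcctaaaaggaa
NFKBIZ, chr3:101827757-101827856, plus strand: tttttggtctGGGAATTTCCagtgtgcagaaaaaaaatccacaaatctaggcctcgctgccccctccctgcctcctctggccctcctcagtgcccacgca
NFKB1, chr4:102501306-102501335, plus strand: cagtGGGAATTTCCagccaggaagtgagag
NFKB2, chr10:102394467-102394496, plus strand: tcatGGGAATTCCCCcctccggggggccga
TNFAIP3, chr6:137867188-137867217, plus strand: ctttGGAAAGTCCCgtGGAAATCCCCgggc

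The deposited unit was TPM, a read density per gene length expressed as a part of 1 common total, so sequencing depth is unknown and no counting error could be given. HIF1A, the gene of HIF1α, stood at 124 ± 23.5 TPM in vector and 48.5 ± 9.35 TPM in HIF1α-ko, and EPAS1, the gene of HIF2α, at 322 ± 31.5 TPM in vector and 107 ± 17.0 TPM in HIF2α-ko (mean ± SD, n = 3). The dual knockout held 75.5 ± 11.9 TPM of HIF1A and 117 ± 14.4 TPM of EPAS1. Its HIF1A level was 0.64 log2 units above HIF1α-ko (limma, adjusted p = 0.0287). Against HIF2α-ko the HIF1A difference was -0.19 and not called (adjusted p = 0.453). Both transcripts were thus lower than in vector but still present in the groups named for their loss. All 5 markers of the line were at 1 TPM or more in every library. Against vector, however, 2 of them were called lower in each single knockout and 3 in the dual knockout. Among all tested genes the share called lower was 8.77% and 5.89% for the single knockouts, HIF1α first, and 14.8% for the dual knockout. The 5 markers summed to 16490–21950 TPM in vector and 14990–15980 TPM in HIF1α-ko. The range for HIF2α-ko, 10950–12620 TPM, lay within that of the dual knockout, 9172–12680 TPM. By contrast, none of 3 astrocyte, 6 leukocyte and microglia and 2 epithelial markers reached 1 TPM in any library. The summed level of 3 endothelial markers was 1.60 to 6.64 TPM in vector, 1.41 to 3.69 in HIF1α-ko, 3.72 to 7.08 in HIF2α-ko and 1.15 to 1.89 in HIF1α/2α-ko. The part of either marker list in the results was not tested.

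Vector replicate 1 stood apart from the other vector libraries, also in most of the 10 genes. Pearson's r of log2(TPM + 1) across genes was 0.968 and 0.966 between this library and vector replicates 2 and 3, and 0.989 between the latter. Its NFKBIZ level was 8.81 times the mean of vector replicates 2 and 3, that of BIRC3 was 5.06 times, that of NFKB1 2.42 times, that of NFKBIA 1.96 times and that of TNFAIP3 1.81 times. RELA went the other way, with a ratio of 0.549, and RELB stood at 1.18. Of the 9 tested members 7 were higher in this library, with a median log2 difference of 0.83. Among all 11731 tested genes 6421 were higher (54.7%), with a median of 0.06. The labels say nothing that sets this library apart, and the changes of the tested members from vector are therefore given with all libraries and without it. This library was singled out from the same values, and leaving it out lowers the vector mean of genes that stood higher in it. Calls gained without it are therefore no independent support for a change.

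Values are listed in the order of replicates 1 to 3. Fold changes are differences of log2(TPM + 1), which understate the change of low genes. Every adjusted p comes from limma with Benjamini-Hochberg adjustment over the 11731 genes tested. Where the filter on low values was changed, the adjustment was over the genes that then remained. A call is an adjusted p under 0.05.

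**Figure D1:**
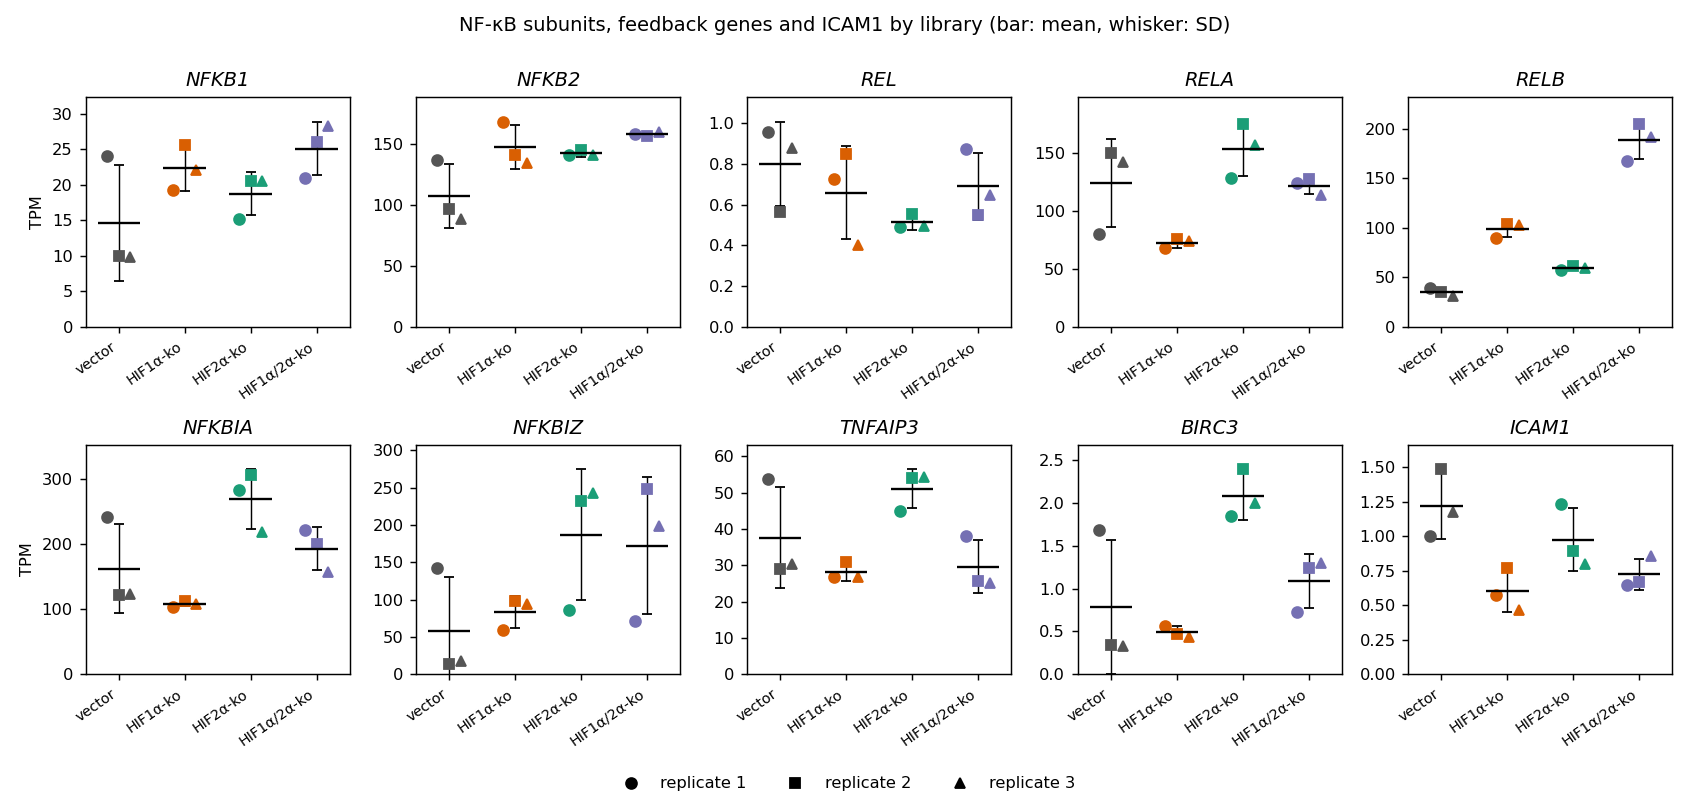
TPM (vertical axis, linear, from 0) of each of the 10 genes in the 12 libraries, by group on the horizontal axis, with 1 point for each library, a bar at the mean and whiskers of 1 SD. RELB rises from 31.7–39.4 TPM in vector to 168–205 TPM in HIF1α/2α-ko with no overlap between any of the groups, whereas vector replicate 1 lies far above the other vector libraries for NFKBIZ, BIRC3 and NFKB1.

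RELB (ENSG00000104856, GRCh38 chromosome 19, 45001430 to 45038198, plus strand, protein-coding) encodes the partner of p52 in the noncanonical route. It stood at 39.4, 35.1 and 31.7 TPM in vector, at 90.1, 103 and 103 TPM in HIF1α-ko, at 57.4, 61.2 and 59.7 TPM in HIF2α-ko and at 168, 205 and 192 TPM in HIF1α/2α-ko. The ranges of the 4 groups did not overlap, in the order vector, HIF2α-ko, HIF1α-ko and HIF1α/2α-ko. From vector it rose by a log2 fold change of 1.46 in HIF1α-ko (SE 0.12, adjusted p = 3.61e-05), 0.74 in HIF2α-ko (SE 0.12, adjusted p = 0.00498) and 2.38 in HIF1α/2α-ko (SE 0.12, adjusted p = 3.13e-07). The dual knockout lay above HIF1α-ko by 0.92 (adjusted p = 0.000267) and above HIF2α-ko by 1.64 (adjusted p = 2.21e-06), and HIF2α-ko differed from HIF1α-ko by -0.72 (adjusted p = 0.00174). The change in HIF1α/2α-ko exceeded the sum of the single changes by 0.19, with a 95% interval of -0.19 to 0.57 and an adjusted p of 0.483. A required log2 change of at least 1 would end 3 of these 6 calls, those at 0.74, 0.92 and -0.72, and no other alternative setting or left-out library ended one. Without vector replicate 1 the rises were 1.53, 0.81 and 2.46 in the same order. In bulk RNA, fewer cells that express a gene and less mRNA in each cell cannot be told apart, for this and every later gene.

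NFKB2 (ENSG00000077150, chromosome 10, 102394110 to 102402529, plus strand) encodes p100, the precursor of p52. Its levels were 137, 96.4 and 88.6 TPM in vector, 168, 141 and 134 TPM in HIF1α-ko, 141, 145 and 141 TPM in HIF2α-ko and 159, 157 and 160.0 TPM in HIF1α/2α-ko. Every HIF2α-ko and HIF1α/2α-ko library was above every vector library, while the lowest HIF1α-ko library was below vector replicate 1. NFKB2 rose by 0.48 in HIF1α-ko (SE 0.15, adjusted p = 0.0372), and the dual knockout showed a rise of 0.58 (adjusted p = 0.00751). In HIF2α-ko the difference was 0.43 (adjusted p = 0.0915). The call in HIF1α-ko was lost without any 1 of 9 of the 12 libraries, all but vector replicate 1, HIF2α-ko replicate 1 and HIF1α/2α-ko replicate 1 (adjusted p up to 0.144). Both calls were lost with median ratio scaling, to 0.28 (adjusted p = 0.257) and 0.36 (adjusted p = 0.106). The call in HIF1α-ko was also lost with quantile normalization, in a fit of only the groups compared and without the mean-variance trend. Without vector replicate 1 all 3 knockouts passed, at 0.66 (adjusted p = 0.00107), 0.62 (adjusted p = 0.00299) and 0.77 (adjusted p = 0.000202).

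NFKB1 (ENSG00000109320, chromosome 4, 102501329 to 102617302, plus strand) encodes p105, the precursor of p50. It stood at 24.1, 10.02 and 9.90 TPM in vector, 19.2, 25.6 and 22.1 TPM in HIF1α-ko, 15.2, 20.5 and 20.6 TPM in HIF2α-ko and 20.9, 26.0 and 28.3 TPM in HIF1α/2α-ko. Vector replicates 2 and 3 were below every knockout library, and vector replicate 1 was above 6 of the 9. It rose in HIF1α/2α-ko by 0.84 (SE 0.28, adjusted p = 0.0262), a call lost without replicate 2 or 3 of either group (adjusted p up to 0.108), with median ratio scaling (0.0508) and with quantile normalization (0.0903). The differences were 0.68 in HIF1α-ko (adjusted p = 0.0905) and 0.44 in HIF2α-ko (adjusted p = 0.345). Once vector replicate 1 was left out, all 3 knockouts passed: HIF1α-ko at 1.08 (adjusted p = 0.0013), HIF2α-ko at 0.84 (adjusted p = 0.0089) and the dual knockout at 1.24 (adjusted p = 0.00027).

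RELA (ENSG00000173039, chromosome 11, 65653596 to 65663094, minus strand) encodes p65, the main transactivating subunit of the canonical route. Its TPM was 80.1, 150 and 142 in vector, 67.7, 76.0 and 74.3 in HIF1α-ko and 128, 175 and 157 in HIF2α-ko. The dual knockout had 124, 127 and 114 TPM. All HIF1α-ko libraries were below all others, and vector replicate 1 came next to them. RELA fell by 0.71 on the log2 scale in HIF1α-ko (SE 0.20, adjusted p = 0.0243), a call lost without replicate 2 or 3 of vector or without any HIF1α-ko library (adjusted p up to 0.101) and held without vector replicate 1, at -1.0 (adjusted p = 0.000296). In HIF2α-ko the difference from vector was 0.35 (adjusted p = 0.306), and 0.06 without vector replicate 1 (adjusted p = 0.784). In HIF1α/2α-ko it was 0.03 (95% interval -0.42 to 0.47, adjusted p = 0.93), a value that turned to -0.20 with median ratio scaling, to -0.14 with quantile normalization and to -0.26 without vector replicate 1 (adjusted p = 0.121). RELA was higher in HIF2α-ko than in HIF1α-ko by 1.06 (SE 0.20, adjusted p = 0.00351), and no alternative ended that call. The dual knockout was likewise above HIF1α-ko, by 0.74 (adjusted p = 0.0178), but not without HIF1α-ko replicate 1 (adjusted p = 0.0574) or HIF1α/2α-ko replicate 2 (adjusted p = 0.0577).

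REL (ENSG00000162924, chromosome 2, 60881521 to 60931610, plus strand), the gene of the lymphoid-rich subunit c-Rel, stayed below 1 TPM in all 12 libraries. Its levels were 0.955, 0.566 and 0.880 TPM in vector, 0.724, 0.850 and 0.404 TPM in HIF1α-ko, 0.489, 0.553 and 0.497 TPM in HIF2α-ko and 0.871, 0.549 and 0.649 TPM in the dual knockout. The group ranges overlapped, and REL did not pass the filter of 1 TPM in at least 3 libraries, so 9 of the 10 genes were tested.

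The make-up of the subunit mRNA differed between the groups chiefly in RELA and RELB. TPM is set per gene length, so levels of different genes can be put side by side within a library. The 5 subunits summed to 282 ± 9.37 TPM in vector, 342 ± 7.29 TPM in HIF1α-ko, 374 ± 30.2 TPM in HIF2α-ko and 494 ± 21.6 TPM in HIF1α/2α-ko (mean ± SD, n = 3). RELB made up 12.6% ± 1.26 of that sum in vector and 15.9% ± 0.792 in HIF2α-ko, but 28.9% ± 2.54 in HIF1α-ko and 38.1% ± 2.22 in the dual knockout. RELA took 43.9% ± 13.4, 40.8% ± 3.01, 21.2% ± 1.45 and 24.6% ± 1.64 in the same order. NFKB2 took between 30.4% and 48.7% in single libraries, NFKB1 at most 8.56% and REL at most 0.339%. The ratio of RELB to RELA ranged from 0.224 to 0.492 in vector, the highest being vector replicate 1, and from 0.351 to 0.448 in HIF2α-ko. In HIF1α-ko it ranged from 1.33 to 1.39 and in HIF1α/2α-ko from 1.35 to 1.69. RELB mRNA thus exceeded RELA mRNA in each of the 6 libraries labelled as lacking HIF1α and in none of the other 6. This describes ratios that were not tested. HIF1A mRNA did not divide the libraries in the same way. Its range was 67.8–89.2 TPM for the dual knockout and 76.1–107.7 TPM for HIF2α-ko.

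Among the inhibitors, NFKBIA (ENSG00000100906, chromosome 14, 35401511 to 35404749, minus strand) encodes IκBα, which holds RELA dimers in the cytoplasm and is itself an NF-κB target. Its mRNA stood at 241, 122.5 and 124 TPM in vector, 104, 112 and 109 TPM in HIF1α-ko, 284, 307 and 219 TPM in HIF2α-ko and 221, 201 and 158 TPM in HIF1α/2α-ko. The HIF1α-ko libraries were the lowest of all, each HIF1α/2α-ko library was above each of them, and vector replicate 1 lay within the range of HIF2α-ko. NFKBIA was higher in HIF2α-ko than in HIF1α-ko by 1.29 (SE 0.24, adjusted p = 0.00247), a call that no alternative ended. The dual knockout lay 0.81 above HIF1α-ko (adjusted p = 0.0213), but not without replicate 1 or 3 of HIF1α-ko or replicate 1 or 2 of the dual knockout (adjusted p up to 0.0654). From vector it rose by 0.79 in HIF2α-ko at the edge of the threshold (adjusted p = 0.0496). The call was lost without any 1 of 10 libraries, all but vector replicate 1 and HIF1α/2α-ko replicate 1 (adjusted p up to 0.194). Also ending it were a pseudocount of 0.1, no filter on low values, quantile normalization, a fit of only the groups compared and no mean-variance trend. HIF1α-ko differed from vector by -0.50 (adjusted p = 0.13) and the dual knockout by 0.31 (adjusted p = 0.294). Leaving out vector replicate 1 gave 1.11 for HIF2α-ko (adjusted p = 0.0011), -0.18 for HIF1α-ko (adjusted p = 0.411) and 0.63 for the dual knockout (adjusted p = 0.00791).

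TNFAIP3 (ENSG00000118503, chromosome 6, 137867188 to 137883312, plus strand) encodes A20, a ubiquitin-editing enzyme that shuts off signalling above IKK. It stood at 53.7, 29.1 and 30.3 TPM in vector, 26.8, 30.9 and 26.8 TPM in HIF1α-ko, 45.0, 53.9 and 54.4 TPM in HIF2α-ko and 38.02, 25.8 and 25.1 TPM in HIF1α/2α-ko. Each HIF2α-ko library was above each library of the other knockouts. The gene was higher in HIF2α-ko than in HIF1α-ko by 0.83 (SE 0.23, adjusted p = 0.0194), a call lost without HIF1α-ko replicate 3 or HIF2α-ko replicate 2 or 3 (adjusted p up to 0.0656). HIF1α/2α-ko differed from HIF2α-ko by -0.79 (adjusted p = 0.013), a call lost without HIF1α/2α-ko replicate 2 or 3 (adjusted p up to 0.0555). HIF1α/2α-ko and HIF1α-ko differed by 0.05, with a 95% interval of -0.44 to 0.54. From vector, HIF1α-ko differed by -0.35 (adjusted p = 0.262), HIF2α-ko by 0.48 (adjusted p = 0.195) and the dual knockout by -0.30 (adjusted p = 0.288). In the fit without vector replicate 1 HIF2α-ko lay above vector by 0.76 (adjusted p = 0.0124), while HIF1α-ko at -0.07 and the dual knockout at -0.03 did not pass.

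BIRC3 (ENSG00000023445, chromosome 11, 102317450 to 102339403, plus strand) encodes cIAP2, a ubiquitin ligase that protects cells from death signals and is induced by NF-κB. It was lowly expressed, at 1.69, 0.341 and 0.325 TPM in vector, 0.568, 0.476 and 0.436 TPM in HIF1α-ko, 1.85, 2.39 and 1.99 TPM in HIF2α-ko and 0.731, 1.24 and 1.29 TPM in HIF1α/2α-ko. The HIF2α-ko libraries were above all others, and those of HIF1α/2α-ko were above all of HIF1α-ko. BIRC3 was higher in HIF2α-ko than in HIF1α-ko by 1.04 (SE 0.24, adjusted p = 0.00911), and no alternative in which it was tested ended that call. Against vector it rose in HIF2α-ko by 0.87 (adjusted p = 0.0386). This call was lost without any 1 of 9 libraries, all but replicate 1 of vector, HIF1α-ko and HIF1α/2α-ko (adjusted p up to 0.164). It was also lost without the filter on low values and in a fit of only the groups compared. HIF1α-ko differed from vector by -0.17 (adjusted p = 0.617) and the dual knockout by 0.30 (adjusted p = 0.33). With vector replicate 1 left out, HIF2α-ko stood 1.2 above vector (adjusted p = 0.000624), HIF1α-ko 0.16 (adjusted p = 0.443) and the dual knockout 0.64 (adjusted p = 0.0065).

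NFKBIZ (ENSG00000144802, chromosome 3, 101827991 to 101861022, plus strand) encodes IκBζ, a nuclear IκB protein that both assists and restrains NF-κB at chosen genes. It had the widest spread of the 10 genes, at 142, 14.5 and 17.8 TPM in vector, 59.5, 98.5 and 93.7 TPM in HIF1α-ko, 86.0, 233 and 242 TPM in HIF2α-ko and 71.1, 248 and 198 TPM in HIF1α/2α-ko. Replicate 1 was the lowest library of each knockout and the highest of vector, and without the replicate 1 libraries every knockout library was above vector. It rose in HIF1α/2α-ko by 2.14 (SE 0.73, adjusted p = 0.0296), a call lost without replicate 2 or 3 of either group (adjusted p up to 0.127) and without the filter on low values (adjusted p = 0.0648). The differences were 1.26 in HIF1α-ko (adjusted p = 0.218) and 2.30 in HIF2α-ko (adjusted p = 0.0645; 0.0454 with median ratio scaling). Dropping vector replicate 1 raised them to 2.28 in HIF1α-ko (adjusted p = 0.00736) and 3.32 in HIF2α-ko (adjusted p = 0.00178), with 3.16 in the dual knockout (adjusted p = 0.000645). No difference between the knockouts passed, with an interval of -0.55 to 2.63 for HIF2α-ko against HIF1α-ko.

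ICAM1 (ENSG00000090339, chromosome 19, 10270835 to 10286615, plus strand), an adhesion molecule for leukocytes and a much used read-out of NF-κB in endothelium, was close to 1 TPM throughout. It stood at 1.00, 1.48 and 1.18 TPM in vector, 0.577, 0.769 and 0.466 TPM in HIF1α-ko, 1.23, 0.891 and 0.800 TPM in HIF2α-ko and 0.650, 0.672 and 0.855 TPM in HIF1α/2α-ko. All vector libraries were above all libraries of HIF1α-ko and HIF1α/2α-ko. It fell in HIF1α-ko by 0.47 on the log2 scale (SE 0.15, adjusted p = 0.0354), a call lost without replicate 2 or 3 of vector, any HIF1α-ko library or HIF2α-ko replicate 2 (adjusted p up to 0.133) and held without vector replicate 1, at -0.54 (adjusted p = 0.018). The difference was -0.36 in HIF1α/2α-ko (adjusted p = 0.0618; 0.0241 with median ratio scaling), and -0.43 once vector replicate 1 was dropped (adjusted p = 0.0354). That in HIF2α-ko was -0.17 (adjusted p = 0.498), or -0.24 without that library (adjusted p = 0.285). Its levels lay near the filter on low values. Only the vector libraries and HIF2α-ko replicate 1 reached 1 TPM. ICAM1 thus passed the filter through vector, where its mean was highest, so its fall from vector is not independent of the filter.

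**Figure D2:**
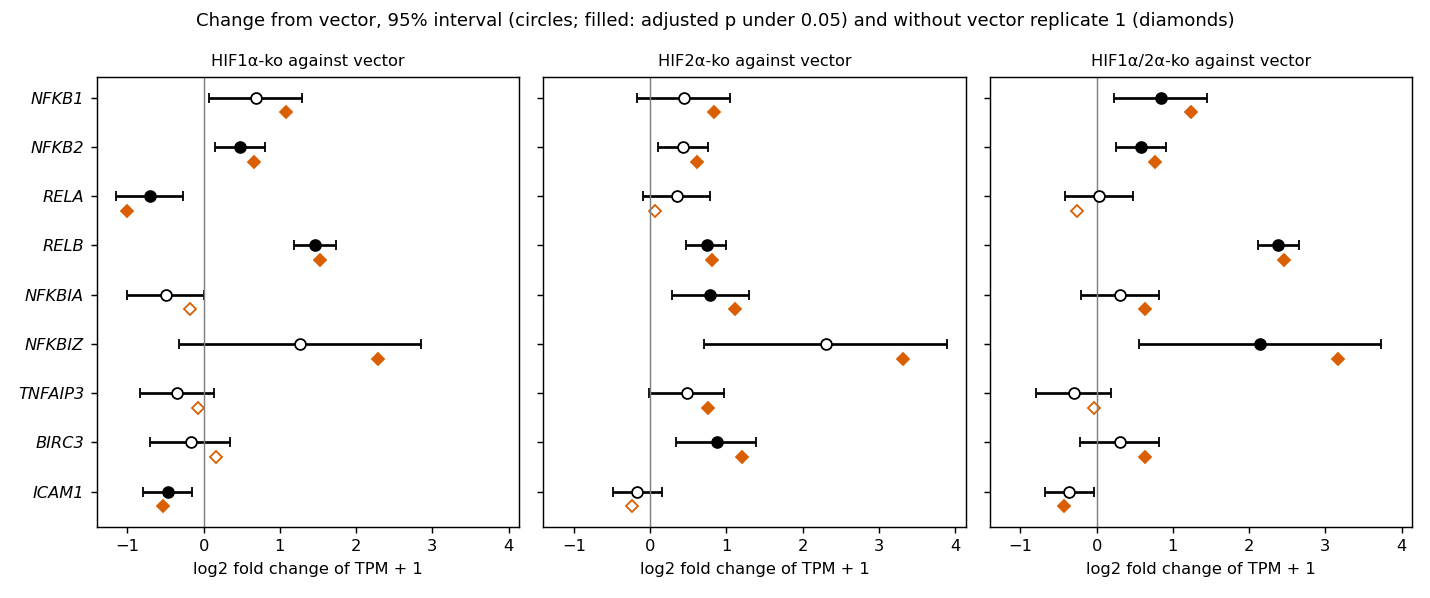
Log2 fold change of TPM + 1 from vector (horizontal axis) of the 9 tested genes in each knockout, with circles and 95% intervals for all libraries and diamonds for the fit without vector replicate 1, filled where the adjusted p is under 0.05. RELB lies to the right of 0 in every panel, at 1.46, 0.74 and 2.38, and the diamonds of NFKB1, NFKBIA, NFKBIZ, TNFAIP3 and BIRC3 lie to the right of their circles.

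Counted over the 9 tested genes, HIF1α-ko had 2 higher (RELB and NFKB2) and 2 lower (RELA and ICAM1) than vector, where 17.3% of all tested genes were higher and 8.77% lower. Of these, ICAM1 had passed the filter on low values through the vector libraries. HIF2α-ko had 3 higher (RELB, NFKBIA and BIRC3) and 0 lower by limma, with 5 at an unadjusted p under 0.05 in either direction, where 5.07% of all genes were higher and 5.89% lower. HIF1α/2α-ko had 4 higher (RELB, NFKB2, NFKB1 and NFKBIZ) and 0 lower, with 5 at an unadjusted p under 0.05, where 31.8% of all genes were higher and 14.8% lower. The median change of the 9 genes was -0.17, 0.48 and 0.31 in the 3 knockouts, beside 0.18, -0.04 and 0.21 over all tested genes. Median ratio scaling brought the latter medians to 0.01, 0.00 and 0.01. With vector replicate 1 left out, 6 genes were called in HIF1α-ko and 7 in each of the other knockouts, where 35.8%, 21.3% and 48.4% of all genes were called in either direction in HIF1α-ko, HIF2α-ko and the dual knockout. The count in HIF1α-ko was 1 without replicate 2 or 3 of vector or any HIF1α-ko library, and 2 without HIF2α-ko replicate 2. In HIF2α-ko it fell to 1 without any 1 of 9 libraries, all but replicate 1 of vector, HIF1α-ko and HIF1α/2α-ko, and in the dual knockout to 2 without replicate 2 or 3 of that group or of vector. RELB was among the genes left in every case.

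The comparison of the single knockouts with each other does not use the vector libraries except for the shared estimate of spread. HIF2α-ko had 4 genes higher than HIF1α-ko (NFKBIA, RELA, BIRC3 and TNFAIP3) and 1 lower (RELB), where 7.37% of all tested genes were higher and 17.8% lower. The median over the 9 genes was 0.83, beside -0.23 over all tested genes. Leaving out single libraries gave 4 or 5 calls. HIF1α/2α-ko had 3 genes higher than HIF1α-ko (RELB, RELA and NFKBIA) and 0 lower, with 3 at an unadjusted p under 0.05, where 17.7% of all genes were higher and 10.6% lower. That count was 1 without HIF1α-ko replicate 1 or HIF1α/2α-ko replicate 2. Against HIF2α-ko, the dual knockout had 1 gene higher (RELB) and 1 lower (TNFAIP3), where 33.5% of all genes were higher and 12.9% lower. This count was 1 without HIF1α/2α-ko replicate 2 or 3 and 5 without vector replicate 1.

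Same-numbered libraries of the 3 knockout groups deviated together from their group means, and a fit of these groups that took the number as a replicate block, chosen after seeing the data, called more genes. It called 5 of the 9 for HIF1α/2α-ko against HIF1α-ko, adding NFKBIZ (0.88, adjusted p = 0.00683) and BIRC3 (0.47, adjusted p = 0.0222). It called 6 for HIF1α/2α-ko against HIF2α-ko, adding NFKBIA (-0.48, adjusted p = 0.00645), BIRC3 (-0.57, adjusted p = 0.00735), RELA (-0.32, adjusted p = 0.0196) and NFKB1 (0.40, adjusted p = 0.00644). For HIF2α-ko against HIF1α-ko it called 6, adding NFKBIZ (1.04, adjusted p = 0.00362). Over all tested genes the block called 48.5%, 62.6% and 50.5% in these comparisons.

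**Figure D3:**
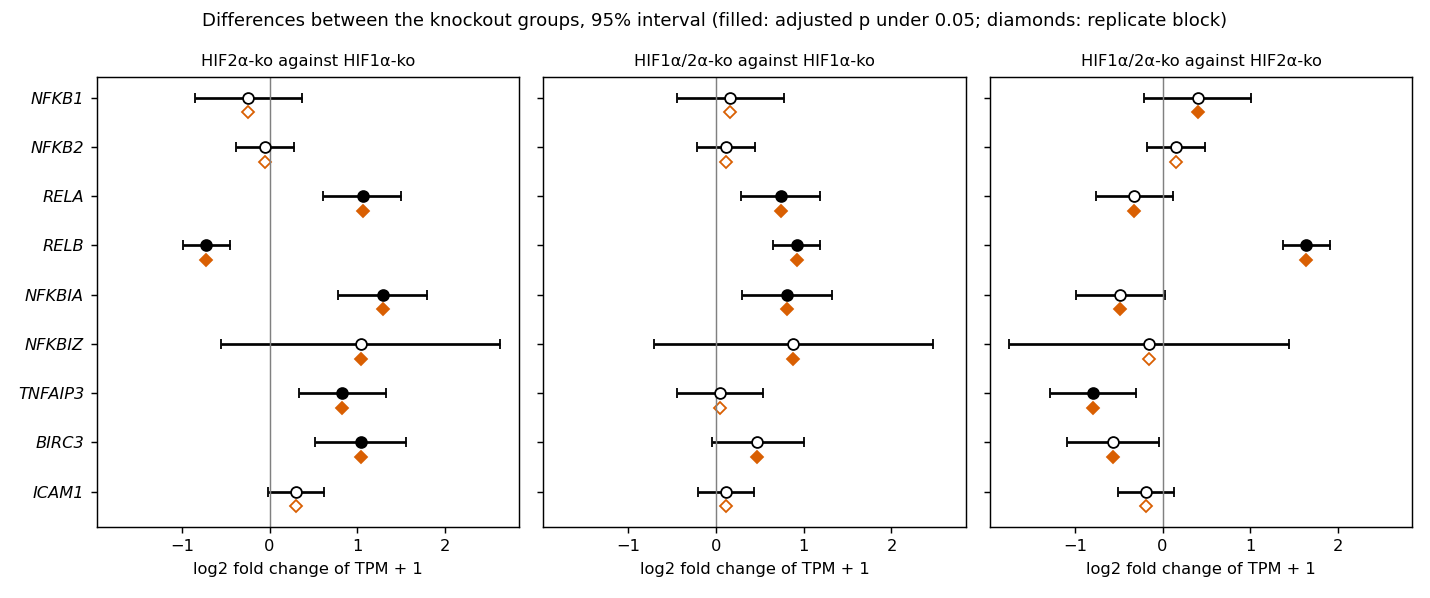
Difference in log2(TPM + 1) between the knockout groups (horizontal axis) for the 9 tested genes, with circles and 95% intervals for all libraries and diamonds for the replicate block, filled where the adjusted p is under 0.05. NFKBIA (1.29), RELA (1.06), BIRC3 (1.04) and TNFAIP3 (0.83) lie to the right and RELB (-0.72) to the left of 0 in HIF2α-ko against HIF1α-ko, and TNFAIP3 returns to 0.05 in HIF1α/2α-ko against HIF1α-ko.

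The interaction, by how much the dual knockout departed from the summed single changes, was called by limma for 0 of the 9 genes, with 0 at an unadjusted p under 0.05, where 13.2% of all tested genes were above and 7.35% below. The widest interval was that of NFKBIZ, -3.67 to 0.84 around -1.42, and that of NFKBIA was -0.70 to 0.75 around 0.02. Vector enters this term with a plus sign, so leaving out vector replicate 1 lowers it for genes that stood higher in that library. The same step raises the term of RELA, which stood lower there. Without vector replicate 1, 5 genes passed, where 30.4% of all genes did in either direction. They were NFKBIZ at -2.44 (adjusted p = 0.0253), BIRC3 at -0.73 (adjusted p = 0.0237), TNFAIP3 at -0.71 (adjusted p = 0.0432), NFKB2 at -0.51 (adjusted p = 0.0227) and RELA at 0.68 (adjusted p = 0.0144).

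The most alike profile to NFKBIA over the 12 libraries, by Pearson's r of log2(TPM + 1), was that of OPA3 (r = 0.931), followed by SELENBP1 (0.916), ALDH18A1 (0.911), CA11 (0.910) and PPP1R3E (0.907). Among the 9 tested members NFKBIA came closest to BIRC3 (0.887) and TNFAIP3 (0.780), and NFKB1 to NFKBIZ (0.857) and NFKB2 (0.843). These points share the groups and the library scaling, so the values are descriptions over 12 libraries.

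Other genes of the pathway were taken from 3 lists. Of 22 genes of the IKK complex and upstream signalling 21 were tested. In HIF1α/2α-ko 7 were higher and 2 lower than vector, with a median of 0.21, beside 31.8% higher, 14.8% lower and a median of 0.21 over all tested genes. TRAF3, an adaptor that keeps the noncanonical kinase NIK low, rose from 3.27–3.83 TPM in vector to 13.4–17.0 TPM in HIF1α/2α-ko, a log2 fold change of 1.81 (SE 0.17, adjusted p = 8.76e-06), and to 6.59–9.24 TPM in HIF1α-ko (1.04, adjusted p = 0.00151). TNFRSF1B, the second TNF receptor, rose from 42.6–75.4 TPM to 118–152 TPM (1.39, adjusted p = 0.000111). The kinase subunit gene CHUK changed by 1.14 (adjusted p = 0.0033) and the scaffold gene IKBKG, also called NEMO, by 0.96 (adjusted p = 0.00359). Leaving out vector replicate 1 kept these 4 calls, with changes of 1.87, 1.65, 1.14 and 1.19 in the same order. Median ratio scaling gave 4 higher and 5 lower, where 24.3% of all tested genes were higher and 22.2% lower. In HIF1α-ko 6 were higher and 0 lower, where 17.3% of all tested genes were higher and 8.77% lower. This count was 3 without vector replicate 2 and 2 without vector replicate 3 or HIF1α-ko replicate 2. In HIF2α-ko 0 were higher and 1 lower, beside 5.07% and 5.89% of all tested genes. That single call was of TAB2, an adaptor of the kinase TAK1. It was lost without replicate 2 or 3 of vector or replicate 1 or 2 of HIF2α-ko. Without vector replicate 1, 3 were called in HIF2α-ko, where 21.3% of all tested genes were.

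All 12 other IκB proteins and negative regulators were tested, and 6 were higher and 0 lower than vector in HIF1α/2α-ko, with a median of 0.53, against 31.8%, 14.8% and 0.21 for all tested genes. Median ratio scaling gave 6 higher and 1 lower, with a median of 0.32, where 24.3% of all tested genes were higher and 22.2% lower. TNIP2, a partner of A20, rose by 1.56 (SE 0.26, adjusted p = 0.000382), from 20.8–26.8 TPM in vector to 58.5–97.8 TPM. NFKBIE, the gene of IκBε, rose by 1.2 (adjusted p = 0.00072) and NFKBIB, the gene of IκBβ, by 0.93 (adjusted p = 0.00133). BCL3, an IκB protein that works with p50 and p52 dimers in the nucleus, rose by 0.85 in HIF1α/2α-ko (adjusted p = 0.00164) but fell by 0.66 on the log2 scale in HIF2α-ko (adjusted p = 0.0306). The latter call was lost with median ratio scaling and without replicate 2 or 3 of either group (adjusted p up to 0.113). BCL3 was the only member of this list called in HIF2α-ko, where 5.89% of all tested genes were lower. Without vector replicate 1, 3 members were called there, where 21.3% of all tested genes were. TNIP2 was the only member called in HIF1α-ko (0.96, adjusted p = 0.0175), where 17.3% of all tested genes were higher. This call of TNIP2 was lost without replicate 2 or 3 of either group (adjusted p up to 0.0743). In the absence of vector replicate 1, TNIP2, NFKBIE, NFKBIB and BCL3 changed by 1.66, 1.34, 0.77 and 0.78 in HIF1α/2α-ko and BCL3 by -0.73 in HIF2α-ko, all still called.

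Of 25 other NF-κB target genes 22 were tested, and VCAM1 and SELE, the endothelial adhesion genes, were listed at 0 in every library. In HIF1α/2α-ko 9 were higher and 0 lower than vector, with a median of 0.80, where all tested genes gave 31.8%, 14.8% and 0.21. CXCL2, a neutrophil-attracting chemokine, stood at 127, 28.2 and 29.98 TPM in vector and 456, 442 and 450 TPM in HIF1α/2α-ko, a log2 fold change of 3.21 (SE 0.42, adjusted p = 8e-05). Its neighbour CXCL3 rose by 1.98 (adjusted p = 0.000155). These chemokine genes are close copies of each other, so reads could be split between them. BCL2L1, the gene of the survival protein BCL-XL, rose by 1.31 (adjusted p = 0.000219), and SOD2, the mitochondrial superoxide dismutase, by 1.64 (adjusted p = 0.00137). Each of these 4 changes was larger without vector replicate 1, at 3.9, 2.4, 1.56 and 2.12. Called genes of this list numbered 4 higher and 0 lower in HIF1α-ko, where 17.3% of all tested genes were higher and 8.77% lower. They numbered 5 higher and 0 lower in HIF2α-ko, beside 5.07% and 5.89% of all tested genes. Median ratio scaling left 6 of these targets higher in HIF1α/2α-ko and 2 in HIF1α-ko, and raised the count in HIF2α-ko to 6. Of all tested genes it called 24.3%, 10.9% and 6.42% higher in the same order. In vector replicate 1, 20 of the 22 targets were above the mean of vector replicates 2 and 3. Without that library 14 targets were called for the HIF1α knockout, 17 for the HIF2α knockout and 16 for the dual knockout, all higher. The same fit called 24.1%, 11.1% and 33.0% of all tested genes higher, respectively. Without replicate 2 or 3 of vector the count in HIF1α-ko was 0, and it was 0 to 2 without any HIF1α-ko library, HIF2α-ko replicate 2 or HIF1α/2α-ko replicate 3. In HIF2α-ko it was 1 or 2 without replicate 2 or 3 of that group or of vector.

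**Figure D4:**
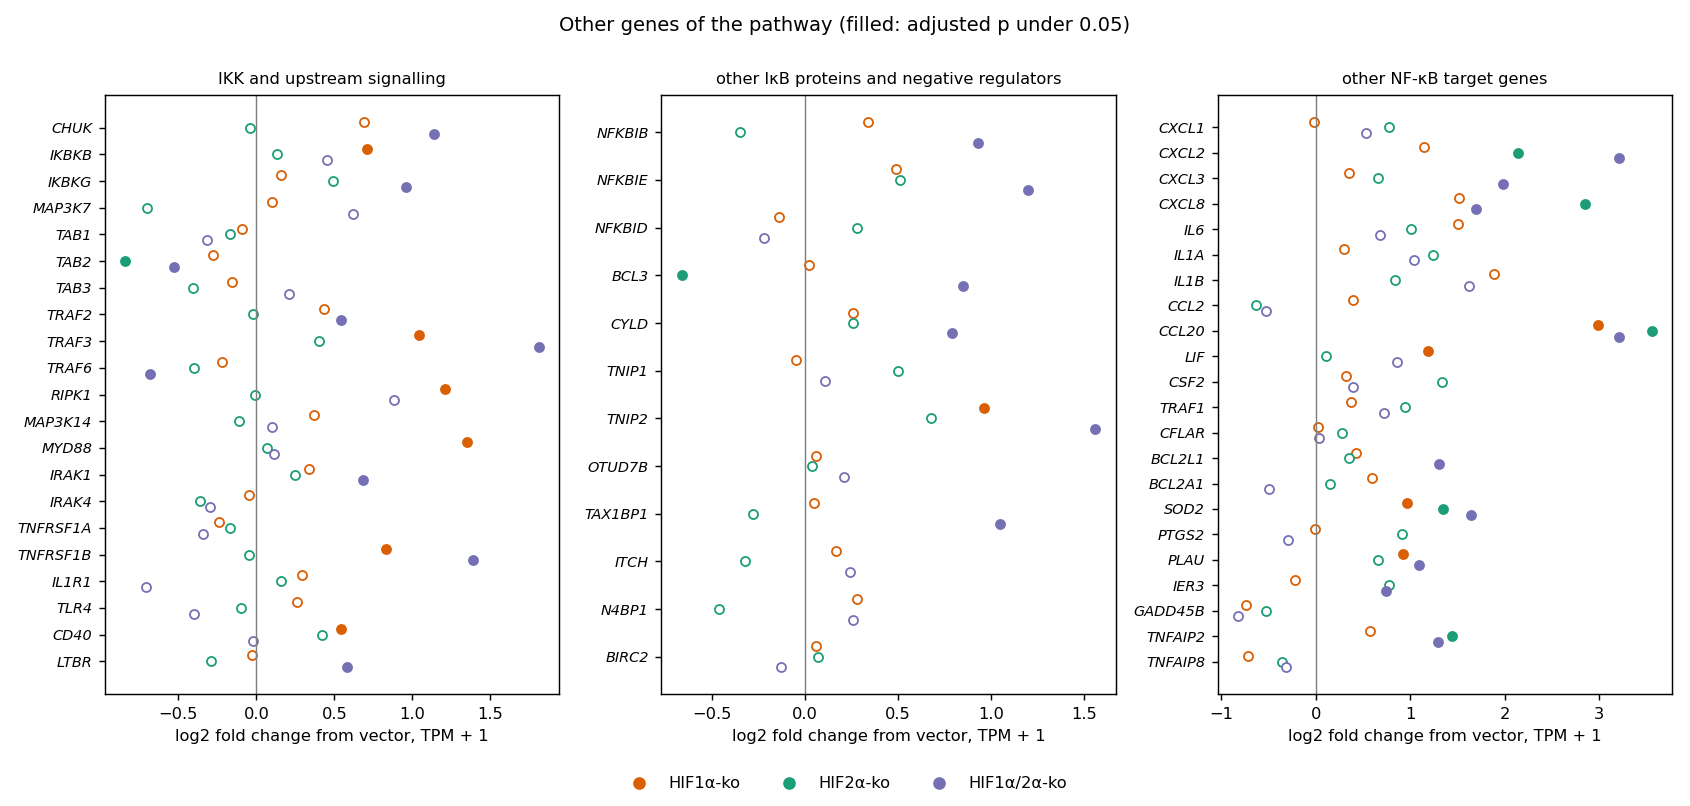
Log2 fold change of TPM + 1 from vector (horizontal axis) of the tested genes of each of the 3 lists, coloured by knockout and filled where the adjusted p is under 0.05. The points of HIF1α/2α-ko reach furthest right in the left and middle panels, at TRAF3 (1.81) and TNIP2 (1.56). In the panel of target genes CXCL2 reaches 3.21 in HIF1α/2α-ko, and the furthest point is CCL20 in HIF2α-ko (3.56).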

How the data were processed

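Poly(A) mRNA libraries of U87 cells under hypoxia were sequenced, 3 for each of 4 groups, and grouped by their labels. The authors deposited TPM values, 1 column per library, unpooled. The submitters' processing notes name FastQC 0.11.2, Trimmomatic 0.36, HISAT2 2.0, bedtools 2.26.0 and build GRCh38. The annotation and the step that made TPM are not given in the sources used here. Columns summed to 999955 to 999982, so TPM keeps no depth. The 3 columns whose names carry no knockout code were taken as vector.

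The 11731 genes that reached 1 TPM in 3 or more libraries were fitted as log2(TPM + 1) with limma 3.58.1 in R 4.3.3, all 4 groups in 1 model with a mean-variance trend. The fit was tested on simulated data. Python 3.11.15 (pandas 2.3.3, matplotlib 3.10.9, numpy 2.4.6) was used for tables and figures. Symbols were found for 20148 of 20263 identifiers, positions are those of GENCODE 29, and transcript starts are those of RefSeq. All 10 genes are named; from each pathway list the 4 of smallest p in the dual knockout are, and for NFKBIA the 5 highest r. TAB2 falls outside this rule and was chosen after its values were seen. The 10 genes and the lists were chosen with earlier results of these data known. Same-numbered knockout libraries deviated together across genes (Pearson's r 0.196 to 0.508). From the values alone they were treated as paired in the replicate block of the knockout groups. The main fit held no block. With vector, r was -0.0265 to 0.163, and no pairing was assumed. Alternatives were a pseudocount of 0.1, no filter, a mean TPM of 5, 2 rescalings, fewer groups, no trend, a log2 change of 1, a replicate block and left-out libraries.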

Additional observations from a re-analysis of the deposited data

Results flagged for a closer look

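No member of the 10 genes was flagged, since none passed the interaction test. Among the other genes named, 3 had a change in HIF1α/2α-ko that differed from the sum of the single changes by the interaction term. Over all tested genes 13.2% were above and 7.35% below that sum. BCL3 and NFKBIB had been named for their small p in HIF1α/2α-ko against vector. That difference is part of the interaction, so their choice was not independent of it. BCL3 was below vector in HIF2α-ko but above HIF1α-ko in HIF1α/2α-ko, without overlap in either comparison, and its interaction was 1.48 (SE 0.24, adjusted p = 0.00236 from limma), with adjusted p-values of 0.00124 to 0.00914 when single libraries were left out. NFKBIB had an interaction of 0.95 (SE 0.26, adjusted p = 0.0236), lost without vector replicate 3, HIF1α-ko replicate 3, HIF2α-ko replicate 2 or HIF1α/2α-ko replicate 2 or 3 (adjusted p up to 0.0638). The targeted gene HIF1A had an interaction of 1.15 (SE 0.28, adjusted p = 0.0131), its libraries in HIF2α-ko lying below vector and those in HIF1α/2α-ko above HIF1α-ko.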

How the results depend on the processing

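RELB kept all 6 of its calls and their direction under each alternative run but a required log2 fold change of at least 1, which 3 of the 6 did not reach. With 1 library left out, the count of called members ran from 1 to 6 in HIF1α-ko, 1 to 7 in HIF2α-ko and 2 to 7 in HIF1α/2α-ko against vector, from 1 to 4 and 1 to 5 for HIF1α/2α-ko against HIF1α-ko and HIF2α-ko, from 4 to 5 for HIF2α-ko against HIF1α-ko and from 0 to 5 for the interaction. A fit of only the groups compared gave 1, 1 and 2 members against vector, RELB in each knockout and also NFKB2 in HIF1α/2α-ko. Without a filter 1 was called in HIF2α-ko against vector, and median ratio scaling gave 5 for HIF1α/2α-ko against HIF2α-ko. Requiring a log2 fold change of at least 1 left 1, 0 and 2 against vector, 0 and 1 for HIF1α/2α-ko against HIF1α-ko and HIF2α-ko, and 3 for HIF2α-ko against HIF1α-ko. Leaving out replicate 1 of every group, chosen after seeing the data, gave 7 and 8 in HIF2α-ko and HIF1α/2α-ko against vector, 5 and 6 for HIF1α/2α-ko against HIF1α-ko and HIF2α-ko, and 6 for the interaction. The replicate block over all 12 libraries gave 4, 4 and 4 members against vector, adding NFKB2 in HIF2α-ko (adjusted p = 0.0479). The replicate block of the knockout groups gave 5, 6 and 6, where 48.5%, 62.6% and 50.5% of all tested genes were called. For the other counts of this section no share of all tested genes under the same fit is given beside them. Those counts therefore describe the fits and are not a result about the members. The change of RELA in HIF1α/2α-ko turned to -0.20 with median ratio scaling, -0.14 with quantile normalization and -0.28 without replicate 1 of every group, and ran from -0.26 to 0.19 with 1 library left out. That of BIRC3 in HIF1α-ko turned to 0.13 without replicate 1 of every group and ran from -0.35 to 0.16. Single-gene values of the knockouts against vector were tallied over all alternatives. Of these, 468 kept their direction and side of the threshold, 74 lost a call, 23 gained one and 7 turned. The 468 include values that were called in neither fit. Differences between knockouts and the interaction were not part of this tally. Causes were not tested. TPM keeps no depth, so the precision of the low genes REL, BIRC3 and ICAM1 is unknown.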
